A study of Mus musculus with 6 samples.

Results

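The miR-191 and miR-425 pair consists of 2 hairpin genes that lie side by side on mouse chromosome 9 and are widely used as steady reference miRNAs. Its 2 members were taken by name from the 1973 rows of a miRNA gene count table. They are Gm24083, which stands at the position of miR-191, and Mir425. The libraries hold small RNA of exosomes that HN9.10e cells, an immortalized mouse embryonic hippocampal line labelled as wild type, released into serum-containing medium. Of the 6 libraries, 3 came from untreated cells (control) and 3 from cells given 100 nmol/L ceramide (ceramide), and the exosomes of both groups were collected after 48 h. All libraries come from this single line. The study speaks of independent experiments in general and of biological replicates for the sequencing, while the labels give replicate numbers and do not tie each library to a culture, so p-values measure the spread between these libraries.

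miRNAs are short RNAs cut from hairpin precursors and loaded into Argonaute proteins, where the seed near the 5′ end guides pairing with target mRNAs. The miR-191 and miR-425 hairpins are carried by the same primary transcript, and the cutting, trimming, decay and export of each miRNA follow as separate steps. miR-191 is abundant in most tissues, including brain, and is often chosen as a calibrator because its level varies little between samples. miR-425 is used in the same way, although less often.

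In GRCm38 the Mir191 hairpin lies at chr9:108568319-108568392 and the Mir425 hairpin at chr9:108568777-108568861, both on the plus strand and 384 bases apart. In GENCODE M21 both lie in an exon of 1 of the 2 transcripts of the noncoding RNA 4833445I07Rik (chr9:108567533-108569174, plus strand), and Dalrd3 begins 1024 bases after Mir425. RefSeq draws Dalrd3 wider, from 108567484 to 108572773, so that it covers both hairpins. No other miRNA row of the table lay within 10 kb of the pair. The sequences of the hairpins and of the mature miRNAs, from RefSeq (GRCm38.p6), show what the counts stand for. In the hairpins the capitals mark the 5p and 3p mature miRNAs, which share one count because each row is a hairpin gene.
Mir191 hairpin: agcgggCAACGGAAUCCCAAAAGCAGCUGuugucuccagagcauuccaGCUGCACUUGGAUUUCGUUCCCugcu
Mir425 hairpin: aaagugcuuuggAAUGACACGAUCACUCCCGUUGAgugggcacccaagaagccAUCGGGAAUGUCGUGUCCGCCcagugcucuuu

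In the mature miRNAs the capitals mark the seed, bases 2 to 8 from the 5′ end. miR-489-3p is shown because it was the only other mature miRNA, among 1679 names, with a seed found in the pair.
miR-191-5p: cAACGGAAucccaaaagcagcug
miR-191-3p: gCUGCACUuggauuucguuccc
miR-425-5p: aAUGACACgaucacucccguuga
miR-425-3p: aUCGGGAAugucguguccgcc
miR-489-3p: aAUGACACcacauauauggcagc
The pair thus has no seed in common, and its members are neighbours in the genome but not a seed family. The seed of miR-425-5p was shared with miR-489-3p alone, and the row Mir489 held 0 counts in all 6 libraries. A count of 0 allows up to 3 counts in a library, well under the counts of Mir425. The Mir425 row pools both arms, so how much of it is miR-425-5p, which carries this seed, is not shown by these counts.

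Gm24083 is a GENCODE gene on the minus strand, at chr9:108568295-108568414, and its sequence holds the reverse complement of the whole Mir191 hairpin. Mir191 itself was not analysed here, and miR-191 is read through Gm24083 by position. The strand setting of the counting is not given in the sources used here, and reads of a gene and of its antisense partner cannot be told apart without it. The same arrangement recurred across the table. GENCODE M21 has 32 places where miRNA genes overlap on opposite strands, and in all 32 the table has a row for 1 of the genes only. In 8 of them a Gm gene stands without the Mir gene, and Gm24083 had the most counts of these 8 rows. A further place allows a direct comparison. Mir3074-1 lies opposite Mir24-1, whose mature miR-24-3p is also made from Mir24-2, and its row held 45804 counts against 47043 on Mir24-2, with 1.22% to 4.17% fewer in each library. Apart from Gm24083, no miRNA gene of GENCODE M21 shared a stretch of 18 bases with Mir191 on either strand, and none did with Mir425. Copies outside these miRNA genes were not searched, and an exchange of reads with other places was not tested.

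The total count per library lay between 800810 and 2760015, and 418 rows passed the filter on low counts, both members among them. Levels are given as normalized CPM (counts relative to library size after TMM scaling) and were not divided by length because a read spans a whole mature miRNA. The libraries carried the sequencing lanes 1, 4 and 4 (control) and 1, 2 and 2 (ceramide), so only lane 1 holds both groups. Of 16 neuronal miRNA genes listed, 14 had a row and all 14 had counts, summing to 21622 to 22823 CPM in control and 20123 to 25056 CPM in ceramide libraries. Most of this sum came from the copies of miR-218 and miR-138, with Mir218-2 alone at 7858 to 14473 CPM. The neuron-defining Mir124a rows were low, at 14.3 to 20.96 CPM. Of 8 blood and liver miRNA genes, 6 had a row, and they summed to 389 to 424 CPM in control and 363 to 413 CPM in ceramide libraries. The largest of them was Mir486, at 178 to 283 CPM, and Mir451a of red cells had 28.9 to 42.7 CPM. Serum in the medium can carry miRNAs of its own, and its part in the counts of the pair was not tested.

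The pair held a small part of the exosomal miRNA counts, and most of this was Gm24083. Gm24083 had 4378, 6539 and 5861 counts in control replicates 1, 2 and 3 and 3049, 11282 and 9408 counts in ceramide replicates 1, 2 and 3. Mir425 had 1222, 1599 and 1457 counts in the control libraries and 585, 2287 and 2198 in the ceramide libraries. Both rows were therefore well covered, with 40517 and 9348 counts in all, and the lowest single value was that of Mir425 in ceramide replicate 1, the shallowest library. Together they made up 0.572 ± 0.0138% of all counts in control and 0.480 ± 0.0224% in ceramide exosomes (SD, n = 3 each), a difference of -0.0927 percentage points. The groups did not overlap, and a two-sided exact permutation test gave p = 0.1, which is as low as 3 libraries against 3 can go. Because these are shares, they move with all other rows as well.

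In normalized CPM, Gm24083 had 4369, 4649 and 4289 in control replicates 1, 2 and 3 and 3962, 4273 and 4005 in ceramide replicates 1, 2 and 3. All 6 libraries were close together, with the highest 1.17 times the lowest. The highest ceramide library, replicate 2, lay just under the lowest control library, replicate 3. Controls averaged 4436 ± 189 CPM and ceramide libraries 4080 ± 169 CPM (SD, n = 3 per group). The log2 fold change of Gm24083 was therefore small, at -0.12 with a standard error of 0.08, or -8.01%. Its Benjamini-Hochberg adjusted p was 0.28 in edgeR's quasi-likelihood test. Its 95% interval ran from -0.30 to 0.06 on the log2 scale, or from -18.7% to 4.08%. A change as large as the fold threshold of 0.6 was thus outside the interval. Falls of up to 18.7% and rises of up to 4.08% were within it.

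Mir425 had 1219, 1137 and 1066 CPM in control replicates 1, 2 and 3 and 760, 866 and 936 CPM in ceramide replicates 1, 2 and 3. All ceramide values were under all control values, with replicate 1 the lowest of its group in ceramide and the highest in control, and the highest library was 1.60 times the lowest. Controls averaged 1141 ± 76.7 CPM and ceramide libraries 854 ± 88.5 CPM (SD, n = 3 per group). For Mir425 the log2 fold change came to -0.42 with a standard error of 0.11, and the same edgeR test gave an adjusted p of 0.042. This was a difference of -25.0% with a 95% interval from -37.3% to -10.3%. The interval in log2 units, -0.67 to -0.16, left out 0 and included the threshold of -0.6.

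**Figure D1:**
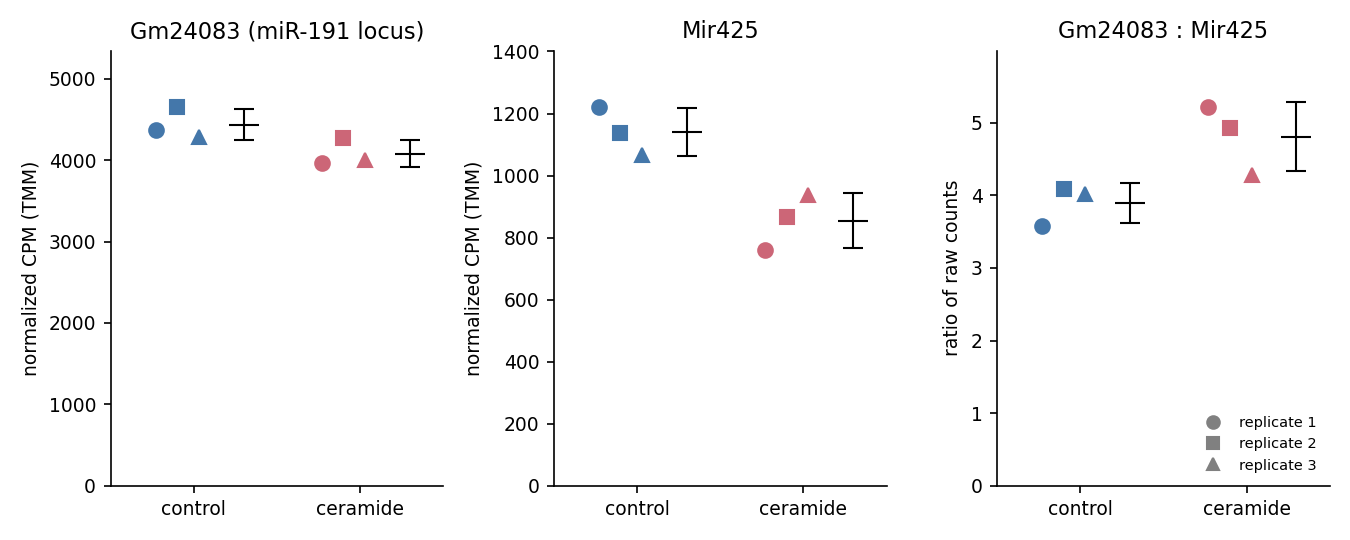
Normalized CPM of Gm24083 (left) and Mir425 (middle) and the ratio of their raw counts (right) in each library, by group, with marker shapes for the replicate number and, beside the points, the mean with its SD (n = 3). Gm24083 stays between 3962 and 4649 CPM, Mir425 is at 1066 to 1219 CPM in control and 760 to 936 CPM in ceramide, and the ratio lies between 3.58 and 4.09 in control and 4.28 and 5.21 in ceramide.

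A row was called when its adjusted p was at most 0.05 and its absolute log2 fold change at least 0.6, the thresholds of the study's methods. Neither member was called, where 11.5% of the 418 rows were. With no fold threshold, 1 of the 2 members, Mir425, passed on adjusted p, against 19.9% of all rows in either direction and 12.7% as lower rows. Mir425 was among 18 rows that were lower with an adjusted p of at most 0.05 and stayed short of the fold threshold. The groups did not overlap for either member, which was also so for 39.2% of all rows, and for 25.1% as rows lower in ceramide. By size of change, 83 rows were lower than Mir425, and 69 rows had a smaller absolute log2 fold change than Gm24083.

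The result for Mir425 depended on the fit, although its direction did not. In each of 16 alternatives, which were other scalings, filters, tools and terms and each library left out in turn, Mir425 was lower in ceramide, with log2 fold changes between -0.68 and -0.34. Its adjusted p was at most 0.05 in 5 of the 16 and rose to 0.089 with RLE size factors, 0.11 with upper-quartile factors and 0.092 in DESeq2. With a library left out it lay between 0.038 and 0.16, and passed 0.05 only without ceramide replicate 3. Gm24083 was lower in all 16, between -0.39 and -0.05, and passed on adjusted p in 1, the scaling to other reference miRNAs (adjusted p = 0.0057 in edgeR). In that scaling 34.9% of all rows passed on adjusted p.

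Libraries that share a replicate number deviated together across the table, so the differences within numbers were also computed. For Gm24083 the log2 difference of ceramide from control was -0.14, -0.12 and -0.10 in numbers 1, 2 and 3. These lie close together, and with the number as a term the log2 fold change of -0.12 had a standard error of 0.05 (edgeR adjusted p = 0.11). For Mir425 the differences were -0.68, -0.39 and -0.19. All had the same sign and they spread widely, and the fit with the number as a term gave -0.41, with a standard error of 0.11 and an edgeR adjusted p of 0.024. With this term 20.8% of all rows were called and 45.2% passed on adjusted p, so that a row passed more readily there. Neither member was called.
Both libraries of number 1 carry lane number 1, the only lane number found in both groups. The values -0.14 for Gm24083 and -0.68 for Mir425 are the differences between these libraries. Whether they shared a run is not given, and an effect of the run was not tested. The fit with lane as a further term rests on these libraries and gave -0.14 for Gm24083 (adjusted p = 0.57) and -0.68 for Mir425 (adjusted p = 0.053, both in edgeR).

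**Figure D2:**
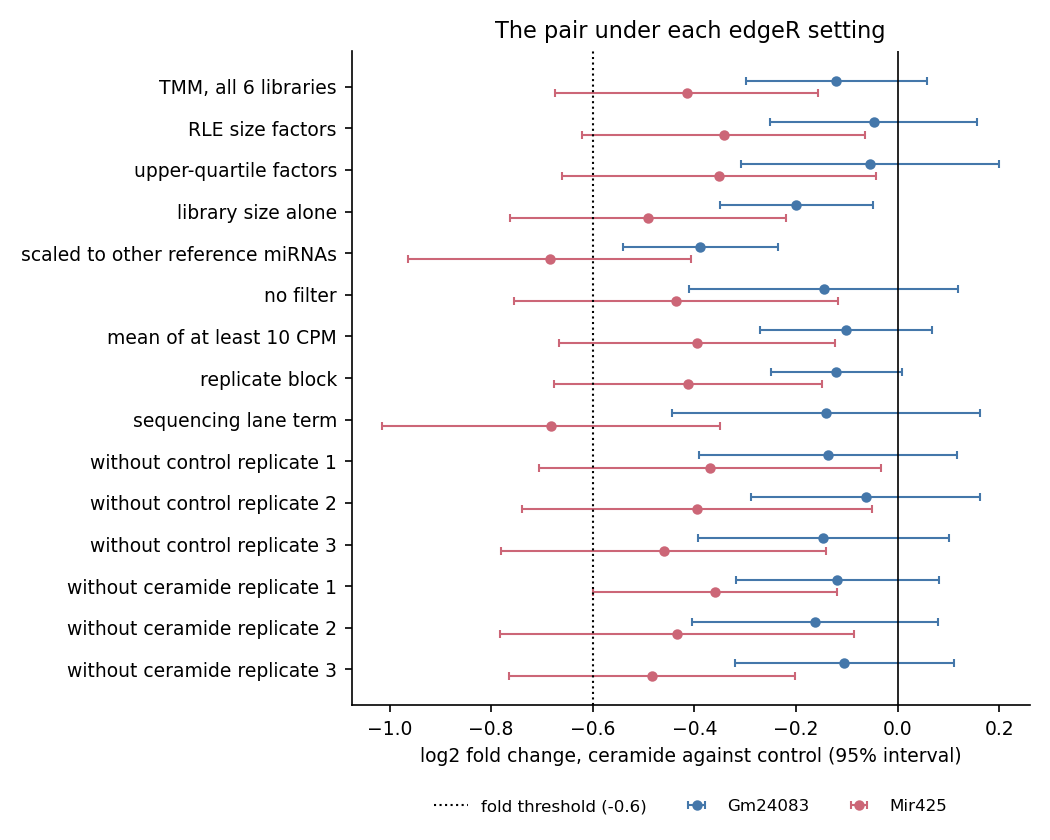
Log2 fold change of ceramide against control for Gm24083 and Mir425 under each edgeR setting, with 95% intervals as bars, a solid line at 0 and a dotted line at the fold threshold of -0.6. Mir425 lies to the left of Gm24083 in every setting, and its intervals leave out 0, while those of Gm24083 leave out 0 only with library size alone and with scaling to other reference miRNAs.

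The ratio of the members within a library does not depend on how libraries are scaled. Gm24083 had 3.58, 4.09 and 4.02 counts for each count of Mir425 in control replicates 1, 2 and 3, and 5.21, 4.93 and 4.28 in ceramide replicates 1, 2 and 3. The ratio was higher in each ceramide library than in each control library, and the nearest values were 4.09 and 4.28. The mean ratio was 3.90 ± 0.275 in control and 4.81 ± 0.478 in ceramide exosomes (SD, n = 3 each). On the log2 scale the difference was 0.30, which exceeded the spread between replicates and gave p = 0.1 (exact permutation test, two-sided, the smallest p possible here). Taking the counts of Mir425 as the scale of each library, edgeR's quasi-likelihood test gave the same difference for Gm24083, 0.30, with a 95% interval from -0.001 to 0.61 and an unadjusted p of 0.051. Within replicate numbers 1, 2 and 3 the log2 ratio was higher in ceramide by 0.54, 0.27 and 0.09, and an exact sign-flip test over these 3 differences gave p = 0.25, the smallest it allows. The share of Gm24083 in the counts of the pair was 79.5 ± 1.19% in control and 82.7 ± 1.47% in ceramide exosomes (SD, n = 3 each).

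A reference miRNA is judged by how little it varies, and here the members differed widely. The SD of log2 CPM over all 6 libraries was 0.09 for Gm24083, the 6th lowest of 418 rows, and 0.26 for Mir425, at rank 191. The median over all rows was 0.27, so Mir425 varied about as much as a usual row. Within groups, where a shift between groups does not count, the SD was 0.06 for Gm24083 (rank 14) and 0.13 for Mir425 (rank 123). Higher counts lower the counting error, and 106 rows had a mean CPM of at least that of Mir425. Of these, 3 were steadier than Gm24083 and 64 were steadier than Mir425. Counting error would give an SD of 0.02 for Gm24083 and 0.04 for Mir425. The spread over all 6 libraries, which includes the shift between groups, was 4.40 and 6.34 times these values. The within-group SDs of 0.06 and 0.13 exceeded the counting SDs by a similar factor in both rows. This counting SD treats each count as an independent molecule, and the handling of the kit's molecular identifiers is not given in the sources used here.
With condition and replicate number both removed, the remaining SD was 0.015 for Gm24083 and 0.18 for Mir425. For Gm24083 this was no larger than its counting SD, on 2 residual degrees of freedom. The rank of Gm24083 held between 3 and 16 with each library left out in turn, and that of Mir425 between 141 and 227. The rank of Gm24083 was 12 with upper-quartile factors, 36 with library size alone and 99 with scaling to other reference miRNAs, where its SD was 0.21.

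**Figure D3:**
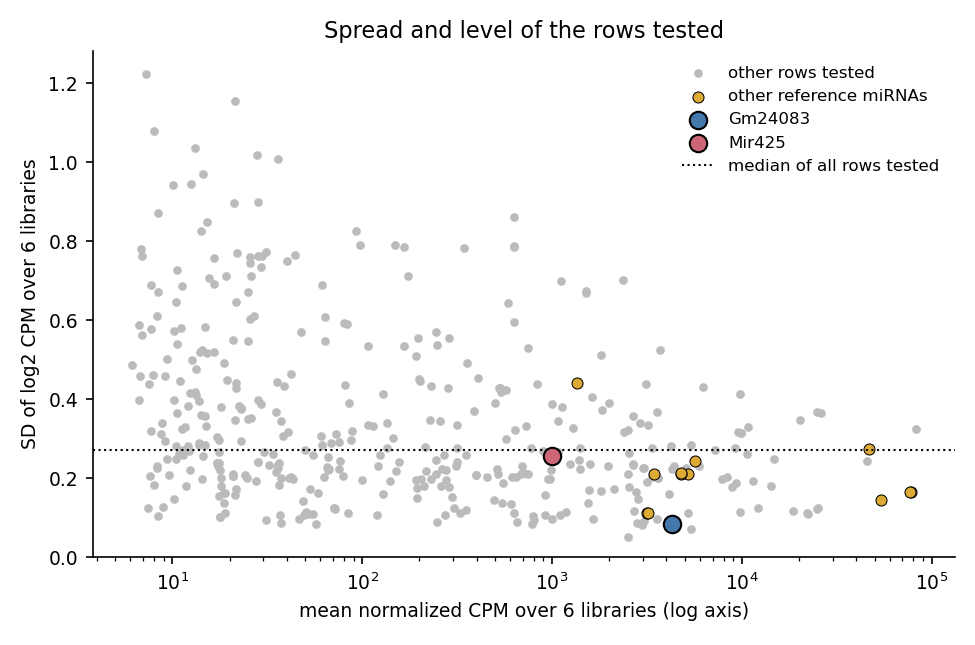
SD of log2 CPM over the 6 libraries against mean normalized CPM (log axis) for the 418 rows tested, with the pair and 12 rows of other reference miRNAs marked and the median of all rows, 0.27, dotted. Gm24083 lies at the lower edge of the cloud with an SD of 0.09, under all 12 other reference rows, and Mir425 lies near the median with 0.26.

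By level, Gm24083 ranked 44 of the 418 rows, with a mean of 4258 CPM over the 6 libraries, and Mir425 ranked 106, with 997 CPM. The next row above Gm24083 was Mir296, with a mean of 4304 CPM and libraries from 3428 to 5026 CPM. The next below was Mir669c of the Sfmbt2 intron cluster, with a mean of 4249 CPM and libraries from 3419 to 5249 CPM. Both ranges enclose all 6 values of Gm24083, so the order of these neighbours does not exceed their spread. Mir425 stood between Mir744, with a mean of 1001 CPM, and Mir182, with 984 CPM. Their libraries ran from 732 to 1502 CPM and from 807 to 1220 CPM, which overlap those of Mir425 as well. Mir296 had a log2 fold change of 0.02 (adjusted p = 0.94), Mir669c of 0.49 (adjusted p = 0.0088), Mir744 of 0.20 (adjusted p = 0.62) and Mir182 of 0.37 (adjusted p = 0.044, all in edgeR). Differences in response between these rows and the pair were not tested.

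The rows most like each member were sought among rows with a mean of at least 100 CPM, as those whose log2 ratio to it varied least over the 6 libraries. For Gm24083 they were Mir676, with an SD of the log2 ratio of 0.05, Mir218-1 of the neuronally enriched miR-218, also in the neuronal list above, with 0.06, and Mir708, which lies in the gene of a teneurin, with 0.07. Their Pearson correlations with Gm24083 were 0.88, 0.76 and 0.69, which describe 6 libraries that share their scaling. The log2 fold changes of the 3 rows lay between -0.12 and -0.09, and none passed on adjusted p. Choosing rows by a steady ratio itself favours fold changes and correlations close to the member, here and for Mir425. For Mir425 the rows were Mir151, with an SD of 0.07, and Mir1198 and Mir28a, both with 0.08. Their correlations with Mir425 were 0.97, 0.97 and 0.95. Mir151, from an intron of Ptk2, had a log2 fold change of -0.35 (adjusted p = 0.064), Mir1198 of -0.51 (adjusted p = 0.032) and Mir28a, from an intron of Lpp, of -0.41 (adjusted p = 0.052, all in edgeR). Against its neighbour Gm24083, 384 bases away, the log2 ratio of Mir425 had an SD of 0.20. Among the 209 rows compared, Gm24083 was at place 31 in likeness to Mir425, and Mir425 at place 66 in likeness to Gm24083.

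Other miRNAs in common use as references were listed for comparison, and 12 of the 13 genes listed had a row. The 12 rows stand for fewer miRNAs, since Mir16-1 and Mir16-2, and likewise the copies of miR-26a and miR-103, share mature sequences and reads. None of the 12 was called, against 11.5% of all rows. On adjusted p alone 4 passed, all of them higher in ceramide, against 19.9% of all rows, where 30 of the 83 were higher. These 4 rows were the copies of miR-16 and miR-26a, so they stand for 2 miRNAs. Over all 12 rows the median log2 fold change was 0.21, beside -0.01 over all 418 rows, with values from -0.62 to 0.40. Of the 12 rows, 10 had positive and 2 had negative log2 fold changes, beside 206 and 212 over all rows and 2 negative values in the pair. None of the 12 was steadier than Gm24083, and 10 were steadier than Mir425, with SDs between 0.11 and 0.44.
The 3 most abundant were Mir16-1 and Mir16-2, of the growth-restraining miR-15 and miR-16 family, and Mir93, of the miR-106b cluster in Mcm7. Mir16-1 had 68676, 74176 and 67557 CPM in control replicates 1, 2 and 3 and 86723, 88430 and 80004 CPM in ceramide replicates 1, 2 and 3, with no overlap. Mir16-1 differed by 0.28 on the log2 scale, with a standard error of 0.07 and an edgeR adjusted p of 0.038. Mir16-2 had 0.28 (adjusted p = 0.039) and Mir93 had 0.24 (adjusted p = 0.053) in the same test. Across the 16 alternatives the adjusted p of Mir16-1 was at most 0.05 in 7 and ran from 0.0014 with the replicate number as a term to 0.90 with scaling to the reference list, which holds Mir16-1 itself, and it was 0.16 in DESeq2. Mir16-2 also passed in 7 of the 16, with adjusted p from 0.0015 to 0.93. The SD over 6 libraries was 0.17 for Mir16-1 and Mir16-2 and 0.15 for Mir93, against 0.09 for Gm24083.

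**Figure D4:**
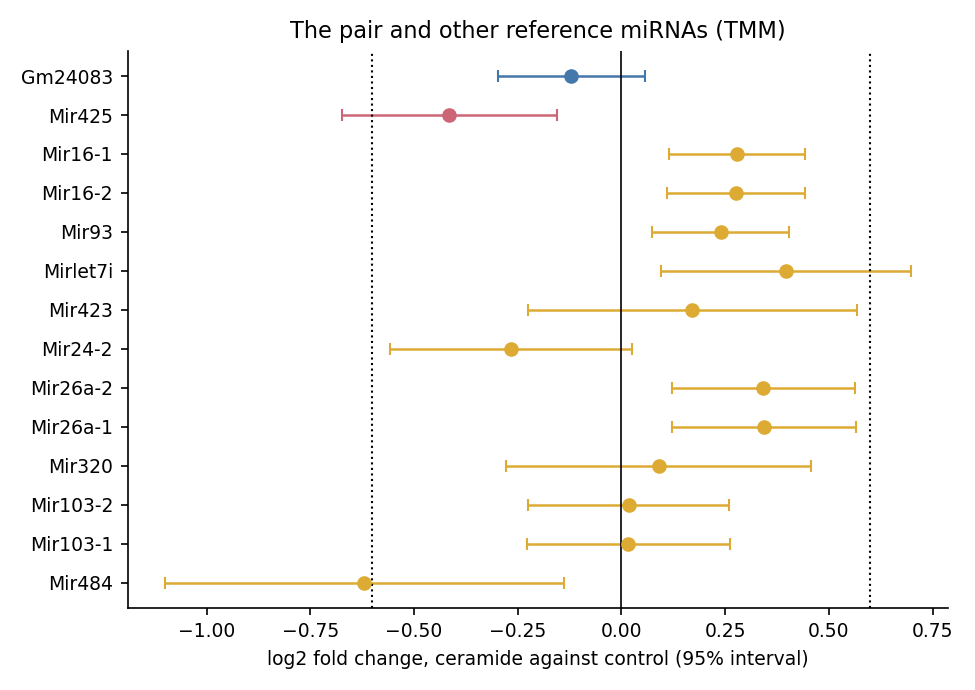
Log2 fold change of ceramide against control, with 95% intervals as bars, for the pair and the 12 rows of other reference miRNAs in order of level, with dotted lines at the fold thresholds of -0.6 and 0.6. Gm24083 is at -0.12, Mir425 at -0.42, and the other rows run from -0.62 to 0.40 with 10 of 12 to the right of 0.

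When a member is the yardstick, every other row is read relative to its counts, and the calls then differed with the member chosen. TMM scaling called 13 rows higher and 35 lower. Scaling to the counts of Gm24083 alone, which moved the median log2 fold change of all rows by 0.12, called 21 higher and 24 lower, and 37 of these 45 were among the 48 of TMM. Scaling to Mir425 alone moved the median by 0.42 and called 76 higher and 6 lower, and 19 of those 82 were shared with TMM. These shifts follow from the members' own TMM log2 fold changes, -0.12 for Gm24083 and -0.42 for Mir425, and are not a separate result. Scaling to the sum of both members moved the median by 0.18 and called 30 higher and 15 lower, with 28 shared. Scaling to the other reference miRNAs moved the median by -0.27, the opposite way, and called 2 higher and 96 lower. That scale is the sum of their raw counts and follows mainly Mir16-1, Mir16-2, Mir93 and Mirlet7i, with means of 46645 to 77594 CPM. The remaining reference rows had means of at most 5647 CPM. Mir16-1 and Mir16-2, which share reads, both enter this sum.
For scale, RLE size factors called 21 higher and 26 lower, upper-quartile factors 23 and 28, and library size alone 4 and 42. The percentage of rows called was 10.8% with Gm24083 and 10.8% with both members, near the 11.2% of RLE, 12.2% of upper-quartile factors and 11.0% of library size, against 19.6% with Mir425 and 23.4% with the other reference miRNAs.
The row with the most counts, Mirlet7b, shows the size of the effect and was chosen after its values were seen. It encodes let-7b, a miRNA that promotes differentiation. Its log2 fold change was 0.59 (standard error 0.07) with TMM, 0.71 (standard error 0.05) relative to Gm24083, 0.76 relative to both members, 1.01 (standard error 0.14) relative to Mir425 and 0.32 relative to the other reference miRNAs. The direction held in each, and the fold threshold was passed with either member or both. It was also passed with RLE size factors (0.66) and upper-quartile factors (0.65) and in DESeq2 (0.61), and not with TMM, library size alone (0.51) or the other references.

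**Figure D5:**
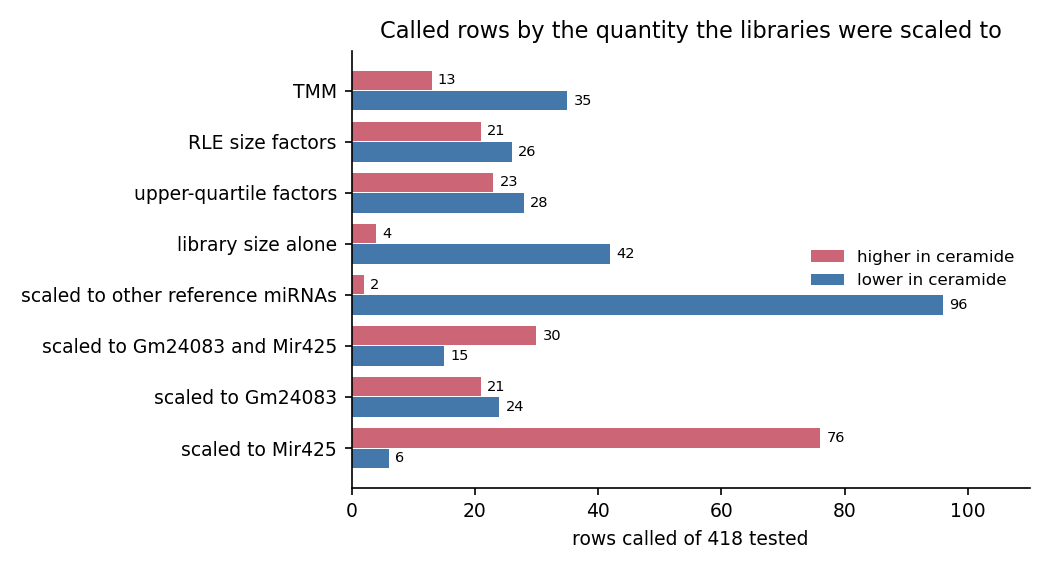
Number of rows called higher and lower in ceramide, of 418 tested, by the quantity to which libraries were scaled. Scaling to Gm24083 gives 21 higher and 24 lower, close to RLE size factors with 21 and 26, whereas Mir425 gives 76 and 6 and the other reference miRNAs 2 and 96.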

How the data were processed

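Small RNA of exosomes was sequenced in 3 control and 3 ceramide libraries. Adapters were trimmed by the authors with Cutadapt 1.15 and reads aligned with STAR 2.5.3a to GRCm38, and raw counts per GENCODE miRNA gene were deposited. The GENCODE release, strand, multimapping and molecular identifiers are not given in the sources used here. Of 1973 rows, 1894 were found in GENCODE M21, the source of names and coordinates, and no unmatched row held more than 97 counts.

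The counts were scaled with TMM, filtered with filterByExpr (418 rows) and tested with edgeR 4.0.16 (R 4.3.3) quasi-likelihood, condition as the only term, with DESeq2 1.42.0 and limma 3.58.1 as alternatives. Standard errors and 95% intervals came from the F statistic on 6.92 degrees of freedom. Spread was the SD of log2 CPM with a prior count of 2. Single values were compared by exact permutation. The tests were checked on simulated counts with log2 fold changes of 1.5 in either direction. Shifts as small as those of the pair were not simulated. Same-numbered libraries had correlated deviations from their group means (0.59, 0.43 and 0.75 for numbers 1, 2 and 3). The number was therefore taken to mark a pair in the replicate block and in the differences within numbers. The main fit and the permutation tests between groups left it out. No libraries agreed within counting noise. The members, the reference list and the check lists were chosen with earlier results of these data known. Besides the members, the rule named the 3 most abundant reference rows, the 3 rows most like each member and the neighbours in level.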

Additional observations from a re-analysis of the deposited data

How the results depend on the processing

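The log2 fold changes were recomputed with other scalings, filters and tools, the replicate block, lane as a term and each library left out in turn. The spreads were recomputed with other scalings, no prior count, the block and a library left out, the ratio with the block, an offset and a library left out, the share with another denominator and a library left out, and the reference list with 3 scalings. Both members kept their direction in all 16 alternatives. Only scaling to the other reference miRNAs called Mir425 (log2 fold change -0.68), and it also raised the spread to 0.21 for Gm24083 and 0.40 for Mir425. With the replicate block the spread of Gm24083 was 0.015, and neither member changed its call. The number of rows called was 48, and 98 with scaling to the other reference miRNAs, 87 with the replicate block, 29 with lane as a term, 83 on adjusted p alone and, in a scaling chosen after seeing the data, as that to Gm24083 alone also was, 82 with Mir425 as the scale. It lay between 28 (without control replicate 1) and 55 with a library left out. With a library left out, the spread lay between 0.06 and 0.09 for Gm24083 and between 0.20 and 0.28 for Mir425, the log2 fold change between -0.16 and -0.06 and between -0.48 and -0.36, the difference in log2 ratio between 0.24 and 0.38 and that in the pair's share between -0.10 and -0.08 percentage points. Of the neighbours and like rows, Mir669c passed on adjusted p in 11 of the 16 alternatives, Mir1198 in 7 and Mir182 in 6. The cause of these shifts was not tested.

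Among the rows named, Mir93 (0.24), Mir744 (0.20) and Mir296 (0.02) turned direction, and none of them had passed on adjusted p. Mir93 was at -0.027 with scaling to the other reference miRNAs, Mir296 at -0.25 there, -0.055 with library size alone and -0.0069 with no filter, and Mir744 at -0.071 with the other references and -0.20 with lane as a term. With a library left out, Mir296 lay between -0.088 and 0.16 and Mir744 between -0.12 and 0.41. Scalings to the pair or its members were not applied to the members themselves, except in the ratio, where Mir425 was the scale for Gm24083. Depth limits Mir425 most in ceramide replicate 1, where it had 585 counts.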
